A study of Mus musculus with 6 samples.

Results

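Fibroblast growth factor (FGF) ligands and genes downstream of the kinase ERK were compared between oxidized and reduced cells of day 5 mouse embryoid bodies. The 10 genes were chosen by name: the ligands Fgf4, Fgf8, Fgf15 and Fgf17, the receptor Fgfr1, the feedback inhibitors Spry2, Spry4 and Dusp6, and the transcription factors Etv4 and Etv5. All 10 were among the 31265 genes of the table and all 10 were among the 12191 genes tested, which had a mean of at least 1 FPKM (fragments per kilobase of transcript, with library size scaled out). The oxidized libraries came from the 10% of live cells with the most oxidized nuclear Grx1-roGFP2, a fluorescent reporter of the redox state of glutathione, and the reduced libraries from the 10% with the most reduced sensor. Both groups were wild-type E14Tg2a mouse embryonic stem cells carrying the sensor, grown in LIF and 2i and differentiated without them for 5 days, and both were sorted from the same 3 populations, named A, B and C. This gave 3 oxidized and 3 reduced libraries of bulk polyadenylated RNA, each a mixture of cell types, so that fewer cells of a type and less RNA per cell cannot be told apart. The labels leave unsaid whether A, B and C were separate clones, cultures or days, and p-values therefore measure the spread between these libraries, which may be technical.

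FGFs are secreted proteins that bind receptor tyrosine kinases together with heparan sulphate on the cell surface. The receptors signal through RAS, RAF and MEK to ERK, which switches on the ETS factors Etv4 and Etv5 and also the Sprouty and Dusp genes, whose products dampen the same pathway. In mouse embryonic stem cells Fgf4 is the main autocrine ligand and drives the exit from naive pluripotency. Fgf8 and Fgf17 are ligands of the primitive streak and nascent mesoderm, and Fgf15 is known from the neural tube and from the gut, where it is a hormone.

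Etv4 and Etv5 belong to one subfamily of ETS factors, so the coding stretches in which they are closest show how far short fragments can separate them. The stretches are 90 coding bases of GENCODE vM21 transcripts on GRCm38, read 5′ to 3′ on the minus strand, with capitals marking the bases that differ between the genes. Those of Etv4 (chr11:101770969-101771058) and Etv5 (chr16:22386757-22386846) lie in exon 12 of 13 and have 81 identical bases (90%), with no identical run longer than 20 bases.
Etv4: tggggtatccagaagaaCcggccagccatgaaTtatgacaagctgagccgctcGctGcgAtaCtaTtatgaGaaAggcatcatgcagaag
Etv5: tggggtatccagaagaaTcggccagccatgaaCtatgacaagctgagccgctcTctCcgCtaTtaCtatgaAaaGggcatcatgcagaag
Of the 10 genes, 7 share no stretch of 50 bases with any other annotated gene. The exceptions are Etv5, with 24.5% of its stretches also in Gm4798, Fgf15, with 21% in the antisense gene Gm26793, and Fgfr1, with 1.13% in the antisense gene Gm16159. The levels of Etv5 and Fgf15 are uncertain to that extent, although Gm4798 held only 0.494 ± 0.0604 FPKM in the oxidized group and 0.307 ± 0.0881 FPKM in the reduced group, and Gm26793 only 1.01 ± 0.483 FPKM in the oxidized group and 0.717 ± 0.142 FPKM in the reduced group (SD, n = 3 each).

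Promoter sequence in the RefSeq table (GRCm38.p6, 250 bases before to 50 after the start) covered 4 of the 10 genes, in 5 windows: Dusp6, Etv5 with 2 starts, Fgf4 and Spry2. The 150 bases before the start are shown for a ligand, a phosphatase and a Sprouty gene, in the direction of transcription, with capitals marking a match to a motif searched on both strands.
Fgf4 (chr7:144861236-144861385, plus strand): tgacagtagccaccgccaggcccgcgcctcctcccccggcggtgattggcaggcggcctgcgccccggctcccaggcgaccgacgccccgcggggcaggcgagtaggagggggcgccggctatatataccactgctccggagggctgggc
Dusp6 (chr10:99263081-99263230, plus strand): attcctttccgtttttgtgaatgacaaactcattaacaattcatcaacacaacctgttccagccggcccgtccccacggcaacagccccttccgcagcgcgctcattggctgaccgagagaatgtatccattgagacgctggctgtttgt
Spry2 (chr14:105896820-105896969, minus strand): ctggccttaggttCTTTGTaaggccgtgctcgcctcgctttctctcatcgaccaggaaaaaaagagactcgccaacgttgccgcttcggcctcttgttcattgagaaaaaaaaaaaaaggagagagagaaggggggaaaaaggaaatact
The stretch of Fgf4 is 75.3% G and C, that of Dusp6 51.3% and that of Spry2 47.3%. The ETS core CCGGAA occurred in the window of Spry2 alone of the 4 genes, starting 34 bases after the start, and in 14.9% of all 32851 windows. The SOX and TCF core ACAAAG occurred in Spry2, on the opposite strand in the capitals above, and in 1 window of Etv5, against 18.7% of all windows. The octamer ATTTGCAT (1.74% of windows) and the CRE TGACGTCA (1.79%) matched none of the 5 windows. These matches describe the letters of the windows only.

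The libraries were not alike within the oxidized group. A ribosomal RNA locus (CT010467) stood at 1410 FPKM in oxidized A, 1736 FPKM in oxidized B and 43825 FPKM in oxidized C, against 34116 to 36593 FPKM in the reduced libraries. The mitochondrial transcript mt-Co3 stood at 2710, 1525 and 127.8 FPKM in the same oxidized libraries, against 111.8 to 199.4 FPKM in the reduced ones. The estimated depth was 1.61e+07, 1.55e+07 and 1.2e+07 fragments in oxidized A, B and C and 1.82e+07, 1.73e+07 and 1.27e+07 in reduced A, B and C. Values without oxidized A and B are given for all 10 genes, and values without these libraries or without oxidized C for some of the others. Wherever 3 values of a group follow one another, they belong to populations A, B and C in that order.

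None of the 10 genes passed the test between oxidized and reduced cells. With limma on log2(FPKM + 1) and Benjamini-Hochberg adjustment over all genes tested, 0 of 10 had an adjusted p under 0.05, against 97 of 12191 genes (0.796%). At an unadjusted p under 0.05, 2 of the 10 were lower in oxidized cells (Fgf8 and Spry4; 5.93% of all genes) and 1 was higher (Fgf15; 13.5% of all genes). The values of 2 of the 10 were lower in all oxidized libraries than in any reduced library (Fgf8 and Spry4), as were those of 8.81% of all genes, and 1 was higher without overlap (Dusp6), as were 16.2% of all genes. The log2 difference, oxidized minus reduced, was negative for 7 genes and positive for 3, with a median of -0.27 beside 0.08 for all genes tested. Of all 12191 genes tested, 4959 had negative and 7232 positive differences. The 7 negative and 3 positive signs were also found with median-ratio scaling and with quantile normalization. Without oxidized A and B the log2 differences were -1.11 for Fgf4, -0.89 for Fgf8, -0.67 for Fgf17, 0.45 for Fgfr1, -0.53 for Spry4, 0.15 for Dusp6 and -0.37 for Etv4. Those of Fgf15, Spry2 and Etv5 are given with each gene. That fit sets oxidized C against reduced A, B and C, so its groups are not matched by population. Of 97 genes called, 63 were higher and 34 lower in oxidized cells, a split of 58 and 50 with median-ratio scaling and of 54 and 51 with quantile normalization.

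**Figure D1:**
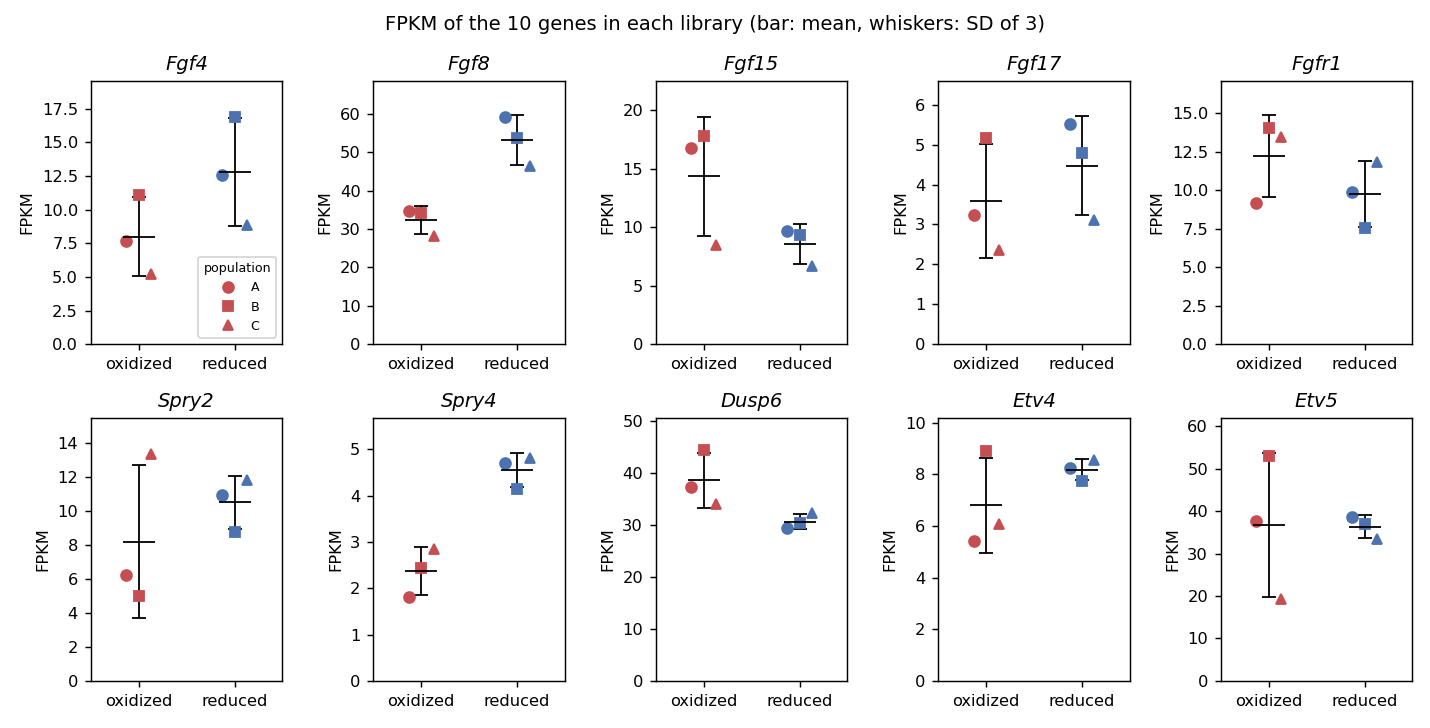
FPKM (vertical axes, from 0) of the 10 genes in the 3 oxidized and 3 reduced libraries, with the population given by the marker, the mean by the long bar and the SD by the whiskers. Fgf8 and Spry4 lie lower in every oxidized library than in any reduced one, Dusp6 lies higher, and the other 7 genes overlap.

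Among the ligands, Fgf8 was the most abundant and the one with the clearest separation. Fgf8 (chr19:45736798-45742915), a ligand needed for cells to leave the primitive streak, was at 34.65, 34.30 and 28.13 FPKM in the oxidized libraries, against 59.32, 53.85 and 46.47 FPKM in the reduced libraries. The oxidized libraries all lay below the reduced ones, and population C was the lowest within each group. The log2 difference was -0.70 (SE 0.17, 95% interval -1.08 to -0.33), with an unadjusted p of 0.00234 and an adjusted p of 0.0947 in limma. Within populations A, B and C the difference was -0.76, -0.64 and -0.71, so that all 3 showed the same direction at a similar size. In the authors' deposited table the fold, oxidized over reduced, was 0.608 with a q-value of 0.00428, and the gene was not marked significant. The smallest absolute log2 fold among the 605 genes marked there was 1.00. There, 389 genes had a q-value under 0.05 and were lower in oxidized cells. They made up 1.38% of the 28179 genes above 0 FPKM in at least 1 library. Of the 10 genes 2, Fgf8 and Spry4, were among the 389.

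Fgf4 (chr7:144847367-144865243), the autocrine ligand of pluripotent cells, was also lower in every population, but its groups overlapped. It was at 7.697, 11.07 and 5.207 FPKM in the oxidized libraries, against 12.57, 16.87 and 8.870 FPKM in the reduced libraries. Population B was the highest and population C the lowest in both groups, and oxidized B lay above reduced C. The log2 difference was -0.63 (SE 0.29, 95% interval -1.28 to 0.03, adjusted p = 0.275, limma), made up of -0.64, -0.57 and -0.67 in populations A, B and C. With the population as a block in limma the adjusted p of Fgf4 was 0.14. The smallest of the 10 genes in that fit was 0.118, for Fgf8.

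Fgf15 (chr7:144896531-144900953) had the opposite sign. It was at 16.73, 17.80 and 8.492 FPKM in the oxidized libraries, against 9.684, 9.370 and 6.642 FPKM in the reduced libraries. Oxidized A and B stood above all other libraries, whereas oxidized C lay within the reduced range. The log2 difference was 0.63 (SE 0.28, 95% interval 0.01 to 1.26, unadjusted p = 0.0480, adjusted p = 0.252, limma), and within populations A, B and C it was 0.73, 0.86 and 0.31. Without oxidized C the log2 difference of Fgf15 was 0.95 with an adjusted p of 0.0195, and without oxidized A and B together it was 0.01 (adjusted p = 0.996). The size of the Fgf15 difference therefore rested on the pair of libraries that also stood apart in ribosomal and mitochondrial transcripts, and the part of those in the result was not tested.

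Fgf17 (chr14:70636203-70642268), the closest relative of Fgf8 among these genes, was the least abundant ligand, and its groups overlapped. It was at 3.248, 5.155 and 2.367 FPKM in the oxidized libraries, against 5.524, 4.779 and 3.100 FPKM in the reduced libraries. Its differences were -0.62, 0.09 and -0.28 in populations A, B and C, with a mean of -0.27 (95% interval -0.87 to 0.33, adjusted p = 0.593, limma). Between 48 and 170 fragments per library are estimated to stand behind these values, the fewest of the 10 genes, and the interval does not exclude a difference as large as that of Fgf8.

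Fgf3, Fgf4 and Fgf15 are neighbours within 62.9 kb of chromosome 7 (chr7:144838083-144900953, GRCm38), and they did not share a direction. Fgf3, an FGF of the posterior streak and the inner ear that was named after its values were seen, was at 11.93, 11.52 and 8.188 FPKM in the oxidized libraries, against 9.238, 6.778 and 10.34 FPKM in the reduced libraries. Its log2 difference was 0.24 (95% interval -0.23 to 0.71, adjusted p = 0.544, limma). The log2 differences of the neighbouring Fgf4 and Fgf15 were -0.63 and 0.63, and the difference between genes was not tested.

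The mixture of ligand transcripts is easiest to see in their sum. The 4 ligands together held 62.33, 68.32 and 44.19 FPKM in the oxidized libraries, against 87.09, 84.87 and 65.09 FPKM in the reduced libraries, lower in oxidized cells in each population. Fgf8 made up 55.6%, 50.2% and 63.6% of that sum in oxidized A, B and C and 68.1%, 63.4% and 71.4% in reduced A, B and C. Fgf15 made up 26.8%, 26.1% and 19.2% in oxidized libraries and 11.1%, 11% and 10.2% in reduced libraries, with no overlap. The ratio of Fgf8 to Fgf15 on the FPKM scale, which is per length, was 2.07, 1.93 and 3.31 in oxidized and 6.13, 5.75 and 7 in reduced libraries. These shares and ratios are descriptions of the values above and add no test.

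**Figure D2:**
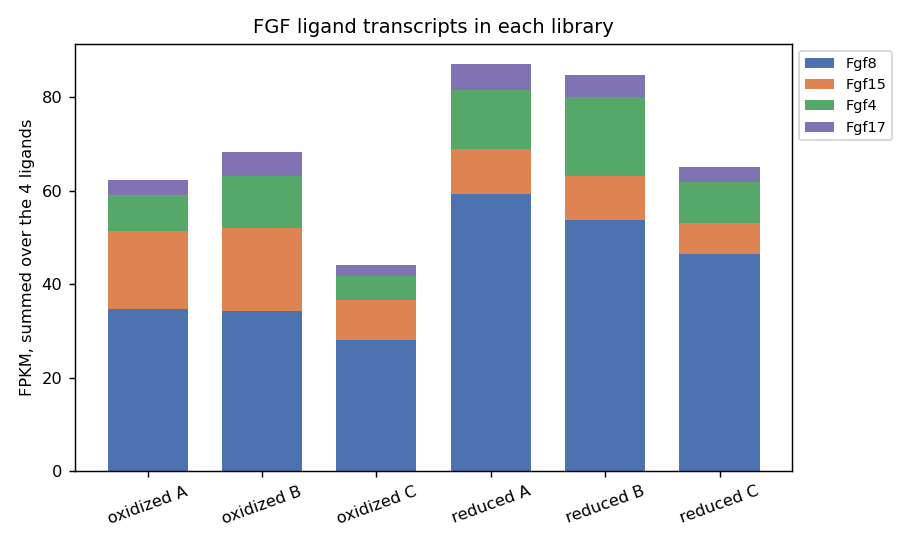
Stacked bars of the FPKM (vertical axis, from 0) of Fgf8, Fgf15, Fgf4 and Fgf17 in each of the 6 libraries, oxidized on the left and reduced on the right. The summed height is 44.19 to 68.32 FPKM in oxidized and 65.09 to 87.09 FPKM in reduced libraries, and Fgf15 takes the larger share in oxidized ones.

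Of the 22 FGF ligand genes listed, 21 were in the table and 8 passed the filter on low values, with 0 called, 4 positive and 4 negative differences and a median of -0.09. Fgf5, the ligand that marks primed epiblast and was named after its values were seen, was at 9.861, 12.31 and 5.226 FPKM in the oxidized libraries, against 7.037, 10.50 and 5.575 FPKM in the reduced libraries (log2 difference 0.19, adjusted p = 0.760, limma). Its level followed the population, with B the highest and C the lowest in both groups, which was also the order of Fgf4.

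Fgfr1 (chr8:25513654-25575718), the main FGF receptor of the early epiblast and mesoderm, had groups that overlapped. It was at 9.192, 14.06 and 13.49 FPKM in the oxidized libraries, against 9.892, 7.582 and 11.87 FPKM in the reduced libraries. The log2 difference was 0.30 (95% interval -0.20 to 0.79, adjusted p = 0.472, limma), and most of it came from population B, at 0.81 beside -0.10 in A and 0.17 in C. Of the 10 receptors and co-receptors listed, 5 passed the filter, all 5 with positive differences and a median of 0.32, and 1 was called. Positive differences were found for 7232 of all 12191 genes tested.

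The called gene was Flrt3, a membrane protein with leucine-rich repeats that binds FGF receptors and is itself an FGF target in frog embryos. It rose to 8.820, 10.33 and 7.691 FPKM in the oxidized libraries, against 2.754, 3.162 and 4.392 FPKM in the reduced libraries. All oxidized libraries lay above all reduced ones (log2 difference 1.17, 95% interval 0.74 to 1.61, adjusted p = 0.0382, limma). With the population as a block the adjusted p of Flrt3 was 0.0902, with no filter on low values it was 0.193, and without oxidized A, oxidized B, reduced A or reduced B it was 0.132, 0.152, 0.202 and 0.191. In the authors' deposited table the fold was 2.60 with a q-value of 3.23e-05. Flrt3 lies inside the gene Macrod2 on the opposite strand, which had a mean of 0.791 FPKM. Fgfr3, named after its values were seen, was at 1.158, 1.342 and 2.268 FPKM in the oxidized libraries, against 0.4643, 0.3372 and 0.5824 FPKM in the reduced libraries (log2 difference 0.81, adjusted p = 0.108, limma). The authors' deposited table gave Fgfr3 a fold of 3.45 with a q-value of 0.000634 and marked it significant.

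The feedback inhibitors had differences of both signs, none of them past the threshold. Spry4 (chr18:38586247-38601415), a Sprouty protein that restrains receptor tyrosine kinase signalling, was at 1.817, 2.432 and 2.853 FPKM in the oxidized libraries, against 4.715, 4.146 and 4.814 FPKM in the reduced libraries. The groups did not overlap, and the log2 difference was -0.73 (SE 0.18, 95% interval -1.13 to -0.33, unadjusted p = 0.00256, adjusted p = 0.0981, limma). Within populations A, B and C it was -1.02, -0.59 and -0.59. Without oxidized C the adjusted p of Spry4 was 0.0228, with a log2 difference of -0.84. In the authors' deposited table the fold of Spry4 was 0.519 with a q-value of 0.00489, below the authors' mark for size.

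Spry2 (chr14:105891947-105896819), a second Sprouty inhibitor, followed Spry4 in 2 of 3 populations. It was at 6.229, 4.998 and 13.34 FPKM in the oxidized libraries, against 10.92, 8.782 and 11.82 FPKM in the reduced libraries. Oxidized A and B were the lowest of the 6 libraries and oxidized C was the highest. The log2 difference was -0.42 (95% interval -1.12 to 0.27, adjusted p = 0.465, limma), and within populations A, B and C it was -0.72, -0.71 and 0.16. Without oxidized C the log2 difference of Spry2 was -0.80 with an adjusted p of 0.0340, and without oxidized A and B it was 0.33, so its direction depended on which oxidized libraries were used. Spry1, named after its values were seen, was more abundant than both and had values of 23.19, 31.68 and 19.85 FPKM in the oxidized libraries, against 22, 21.76 and 18.39 FPKM in the reduced libraries (log2 difference 0.23, adjusted p = 0.531, limma).

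Dusp6 (chr10:99263231-99267489), the cytoplasmic phosphatase that inactivates ERK and a common readout of FGF signalling, was higher in oxidized cells without overlap, by a small margin. It was at 37.16, 44.37 and 34.07 FPKM in the oxidized libraries, against 29.28, 30.27 and 32.17 FPKM in the reduced libraries. The log2 difference was 0.32 (SE 0.16, 95% interval -0.04 to 0.67, adjusted p = 0.304, limma), and within populations A, B and C it was 0.33, 0.54 and 0.08. The ratio of Dusp6 to Spry4 on the FPKM scale was 20.5, 18.2 and 11.9 in oxidized libraries, against 6.21, 7.30 and 6.68 in reduced libraries. This pair of ERK feedback genes thus had differences of opposite sign in all 3 populations, neither past the threshold. Between 1140 and 1920 fragments per library are estimated to stand behind the level of Dusp6.

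Other Dusp phosphatases of the list gave positive differences with 1 exception. Dusp4, Dusp5 and Dusp7 were named after their values were seen, and Dusp9, the exception, for its abundance. Dusp4, a nuclear phosphatase, was at 19.37, 22.45 and 8.926 FPKM in the oxidized libraries, against 9.380, 8.683 and 7.561 FPKM in the reduced libraries (log2 difference 0.82, adjusted p = 0.192, limma). Leaving out oxidized A and B gave Dusp4 a log2 difference of 0.06, and leaving out oxidized C gave 1.2 (adjusted p = 0.00520, limma). Within populations A, B and C the difference of Dusp4 was 0.97, 1.28 and 0.21. Its size, like that of Fgf15, rested on the libraries that stood apart in ribosomal and mitochondrial transcripts, whose part was not tested. The log2 differences of Dusp5 and Dusp7 were 0.66 and 0.63, with no overlap between groups and adjusted p-values of 0.145 and 0.140 in limma. Dusp5 shares 20.5% of its stretches with an antisense gene, AC137853.2, at a mean of 0.551 FPKM. Dusp9, the most abundant gene of the target and feedback list by mean FPKM, was at 31.25, 39.13 and 40.09 FPKM in the oxidized libraries, against 49.67, 39.94 and 50.76 FPKM in the reduced libraries (log2 difference -0.34, adjusted p = 0.315, limma), lower in each population.

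**Figure D3:**
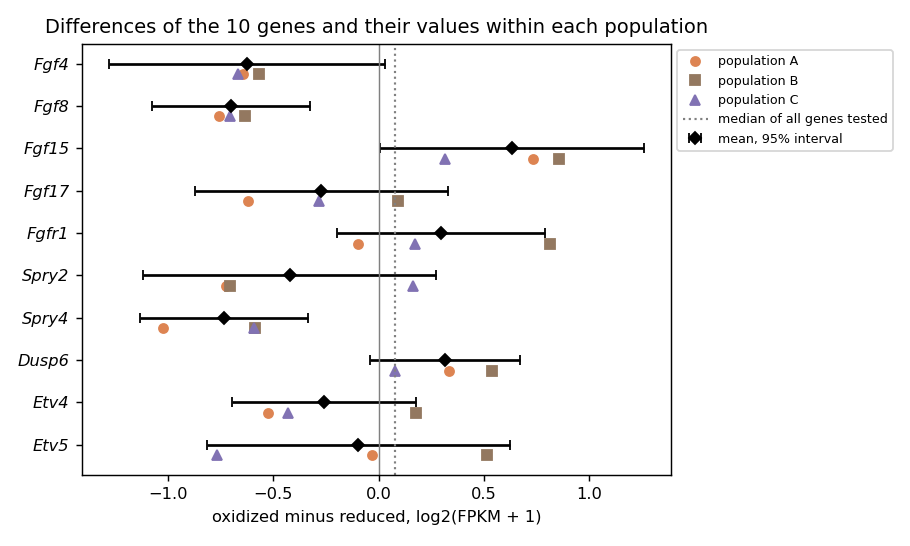
Differences of the 10 genes in log2(FPKM + 1), oxidized minus reduced (horizontal axis), with diamonds for the mean, bars for the 95% interval from limma and coloured markers for populations A, B and C. The intervals of Fgf8 and Spry4 lie below 0, that of Fgf15 reaches from 0.01 to 1.26, and the 3 populations differ in sign for Fgf17, Fgfr1, Spry2, Etv4 and Etv5.

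The ETS factors Etv4 and Etv5, which ERK switches on, had groups that overlapped. Etv4 (chr11:101769742-101785371) was at 5.428, 8.903 and 6.089 FPKM in the oxidized libraries, against 8.263, 7.745 and 8.546 FPKM in the reduced libraries (log2 difference -0.26, 95% interval -0.70 to 0.18, adjusted p = 0.476, limma). Oxidized B was the highest of the 6 libraries, and oxidized A and C were the lowest. Etv5 (chr16:22381309-22439719) was at 37.78, 53.05 and 19.20 FPKM in the oxidized libraries, against 38.64, 36.89 and 33.40 FPKM in the reduced libraries. Its oxidized libraries held both the highest and the lowest value, and the mean of 36.68 ± 16.95 FPKM in oxidized cells lay beside 36.31 ± 2.668 FPKM in reduced cells (SD, n = 3 each). The log2 difference of Etv5 was -0.10 (95% interval -0.82 to 0.62, adjusted p = 0.889, limma), and within populations A, B and C it was -0.03, 0.51 and -0.77. Without oxidized C it was 0.30, and without oxidized A and B it was -0.88 (adjusted p = 0.170), so its direction depended on which oxidized libraries were used. A p above the threshold does not show equal levels.

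Of the 23 ERK target and feedback genes listed, 22 were in the table and 19 passed the filter, with 0 called, 11 positive and 8 negative differences and a median of 0.14. Myc, a transcription factor induced by ERK and other pathways, had the largest difference of the list and was at 18.66, 15.72 and 7.592 FPKM in the oxidized libraries, against 4.444, 2.950 and 5.220 FPKM in the reduced libraries (log2 difference 1.47, 95% interval 0.75 to 2.18, adjusted p = 0.0780, limma). Without oxidized A and B the log2 difference of Myc was 0.75 (adjusted p = 0.338), and without oxidized C it was 1.83 (0.00246). The authors' deposited table marked Myc with a fold of 3.33 and a q-value of 0.000167. Phlda1 had a difference of 1.24 (adjusted p = 0.112, limma) and shares 29.3% of its stretches with the antisense gene Gm28592. Il17rd, also called Sef, a membrane inhibitor of FGF signalling, was at 0.7113, 1.025 and 2.273 FPKM in the oxidized libraries, against 4.025, 3.006 and 2.366 FPKM in the reduced libraries (log2 difference -0.86, adjusted p = 0.147, limma). Without oxidized A and B its log2 difference was -0.32 (adjusted p = 0.661), and without oxidized C it was -1.13 (0.0142). In the authors' deposited table its fold was 0.427 with a q-value of 0.0311. Il17rd and Spry4 had the largest negative differences of the list, while Myc, Phlda1 and Dusp4 had the largest positive ones.

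**Figure D4:**
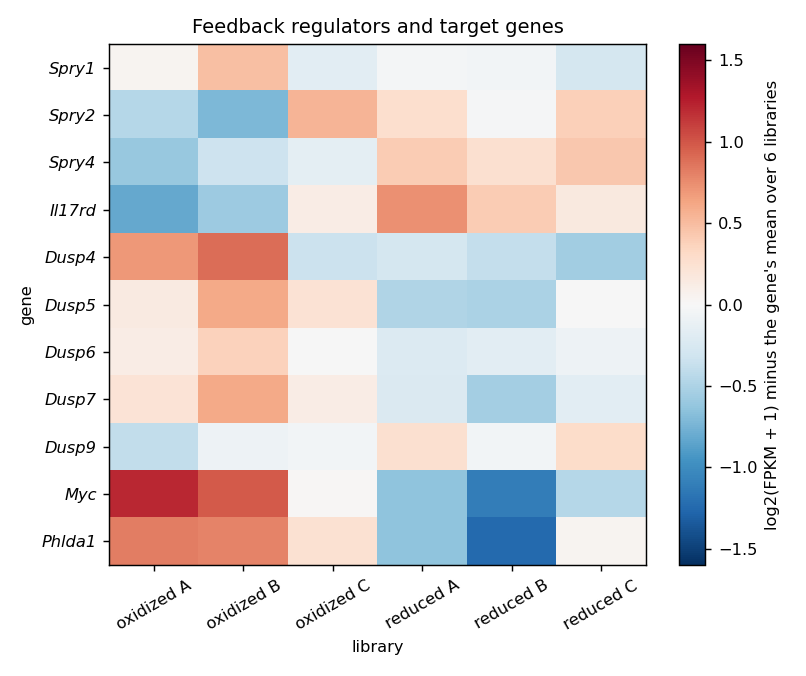
Colour map of log2(FPKM + 1) minus each gene's mean over the 6 libraries (colour scale) for 11 ERK targets and feedback regulators (rows) in the oxidized libraries, on the left, and the reduced libraries, on the right. Spry4 is low in every oxidized library and Il17rd in oxidized A and B, where Myc, Phlda1 and Dusp4 are high. Oxidized C lies nearer to the reduced libraries for Myc, Dusp4, Il17rd and Spry2.

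For the ERK cascade itself no gene passed the test. All 21 genes listed passed the filter, 0 were called, 14 had positive and 7 negative differences, and the median of 0.08 equalled that of all genes tested to 2 decimals. The log2 differences of Braf and Araf were -0.48 and 0.48, with adjusted p-values of 0.282 and 0.184 in limma. Without oxidized A and B they were -0.001 and 0.22, and without oxidized C they were -0.72 and 0.60 (adjusted p = 0.0360 and 0.0552). Mapk3 (ERK1), the most abundant gene of the cascade list by mean FPKM, was at 56.65, 60.24 and 47.29 FPKM in the oxidized libraries, against 48.12, 44.29 and 44.93 FPKM in the reduced libraries (log2 difference 0.25, adjusted p = 0.407, limma). ERK activity is set by phosphorylation, which these transcript levels do not measure.

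Heparan sulphate genes, whose products make, modify or carry the sugar chains through which FGFs bind their receptors, were mostly higher, with 1 called. All 20 passed the filter, 17 with positive and 3 with negative differences, beside 7232 and 4959 of all 12191 genes tested. Their median was 0.48, and 13 had an unadjusted p under 0.05 (limma) in the higher direction, beside 13.5% of all genes. For 12 genes of the list the groups did not overlap, all higher in oxidized cells, beside 16.2% of all genes. The called gene, Hs3st1, a sulphotransferase of the chains, rose to 2.272, 2.015 and 2.626 FPKM in the oxidized libraries, against 0.6415, 0.6861 and 0.2754 FPKM in the reduced libraries (log2 difference 1.11, 95% interval 0.70 to 1.53, adjusted p = 0.0382, limma). Only 5.9 to 61.7 fragments per library are estimated to stand behind the level of Hs3st1. Its adjusted p was 0.0902 with the population as a block, 0.0624 with a pseudocount of 0.1, 0.0533 with quantile normalization and 0.198 with no filter on low values. It was 0.131, 0.123, 0.184, 0.168 and 0.0766 without oxidized A, oxidized B, reduced A, reduced B and reduced C. The core protein genes Sdc1, Sdc3 and Gpc3, named after their values were seen, had log2 differences of 0.88, 0.98 and 0.80, with adjusted p-values of 0.0522, 0.0612 and 0.0890 in limma. Also named after their values were seen, the core protein genes Hspg2 and Sdc4 went the other way. Their log2 differences were -0.85 and -0.105, with adjusted p-values of 0.351 and 0.735 in limma. Gpc3, a glypican, was at 242.4, 235.2 and 174.9 FPKM in the oxidized libraries, against 133.0, 129.1 and 109.6 FPKM in the reduced libraries. Summed over the 5 lists, 2 of the 73 genes tested were called, Flrt3 and Hs3st1, beside 0.796% of all genes tested. With the population as a block 0 of the 73 and 4 of all genes tested were called. Without oxidized C 19 of the 73 passed, 14 of them higher and 5 lower in oxidized cells. In the same fit 1185 of all 12191 genes tested passed, 884 of them higher and 301 lower. Of the genes named above, the 19 included Fgf15, Myc, Phlda1, Dusp4, Sdc1, Sdc3, Gpc3, Flrt3 and Hs3st1 in the higher direction. In the lower one they included Spry2, Spry4, Il17rd, Braf and Hspg2.

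**Figure D5:**
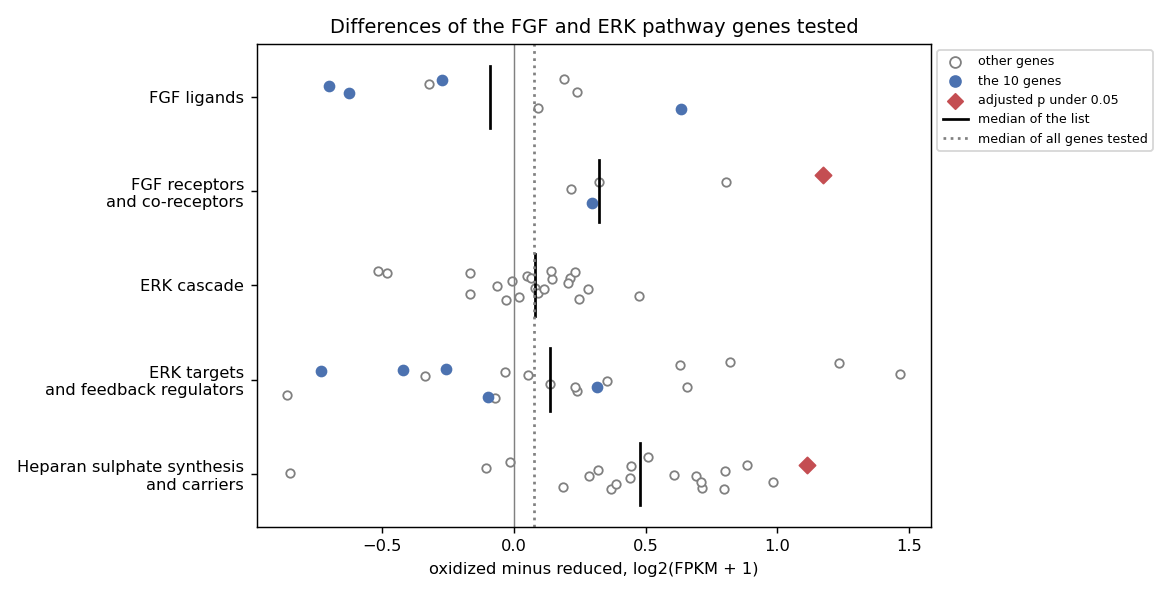
Differences in log2(FPKM + 1), oxidized minus reduced (horizontal axis), of the genes tested in the 5 FGF and ERK lists (rows), with filled circles for the 10 genes, diamonds for the 2 called genes, black bars for the list medians and a dotted line for the median of all genes tested. The medians range from -0.09 for the ligands to 0.48 for the heparan sulphate genes, and the called genes are Flrt3 and Hs3st1.

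Marker lists of the cell types that embryoid bodies can hold were read beside these results. T (brachyury), a primitive streak factor, was the 1 called gene of 7 streak markers tested, and it was at 5.590, 4.471 and 3.473 FPKM in the oxidized libraries, against 14.98, 14.61 and 14.55 FPKM in the reduced libraries (log2 difference -1.53, adjusted p = 0.0158, limma). The adjusted p of T was 0.0601 with the population as a block, 0.148 with no filter on low values, 0.0531 without oxidized A and B, and 0.0619, 0.0870, 0.113 and 0.13 without oxidized A, oxidized B, reduced A and reduced B. Of those 7 markers 6 had negative differences, and the list summed to 36.69 to 48.07 FPKM in oxidized libraries, against 57.01 to 66.78 FPKM in reduced libraries. With T taken out of the sum, the groups overlap. Of the other tested streak markers only Mesp1 (log2 difference -0.565) had groups that did not overlap. The log2 differences of Mixl1, Eomes, Evx1 and Wnt3 were -0.64, -0.20, -0.15 and -0.16, and that of Gsc was 0.29. Fgf8 was lower in the same oxidized libraries, and the part of these markers in its values was not tested. The pluripotent list, 7 of 8 tested with negative differences, summed to 494.3, 612.1 and 281.1 FPKM in the oxidized libraries, against 777.0, 696.5 and 562.9 FPKM in the reduced libraries, and 1 was called, the Nodal co-receptor gene Tdgf1 (adjusted p = 0.0323, limma, and 0.0564 with the population as a block). This stood beside Fgf4 values that were lower in oxidized cells. Pou5f1 was at 132.4, 150.8 and 73.03 FPKM in the oxidized libraries, against 199.5, 180.3 and 168.3 FPKM in the reduced libraries (log2 difference -0.68, adjusted p = 0.209, limma). Sox2 and Nanog had log2 differences of -0.37 and 0.35 (adjusted p = 0.352 and 0.707, limma), and Nanog was at 44.27, 49.01 and 11.53 FPKM in the oxidized libraries, against 18.17 to 27.25 FPKM in reduced libraries. Without oxidized C the adjusted p of Nanog was 0.0180, with a log2 difference of 0.99.

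For other cell types the sums were higher or overlapped. The mesoderm list summed to 179.9 to 215.6 FPKM in oxidized and 89.35 to 144.0 FPKM in reduced libraries, with 3 of 5 markers positive and 0 called. Most of that sum was Hand1, with a mean of 156.0 ± 30.60 FPKM in the oxidized libraries, against 80.78 ± 17.40 FPKM in the reduced libraries. Msgn1 averaged 1.591 ± 0.7419 FPKM in the oxidized libraries, against 4.001 ± 0.6702 FPKM in the reduced libraries (SD, n = 3 each), lower without overlap. Both markers were singled out after their values were seen. The visceral endoderm list summed to 29.32 to 36.42 FPKM in oxidized and 10.57 to 17.03 FPKM in reduced libraries, with 7 of 7 tested markers positive, 0 called and Afp below 1 FPKM in every library. The trophoblast list summed to 40.83 to 41.01 FPKM in oxidized and 24.48 to 36.57 FPKM in reduced libraries, with 2 of 3 markers positive, 0 called and Elf5 below 1 FPKM in every library. Most of that sum was Cdx2, at 27.89, 23.74 and 29.07 FPKM in the oxidized libraries, against 23.37, 14.72 and 28.05 FPKM in the reduced libraries. The groups of Cdx2 overlapped, whereas Gata3 was higher without overlap. Eomes is also on the streak list. Cdx2 and Gata3 too were singled out after their values were seen. The neuroectoderm list, which bears on Fgf15, summed to 15.91, 26.19 and 9.081 FPKM in the oxidized libraries, against 10.56, 11.68 and 9.177 FPKM in the reduced libraries, and Pax6 and Zic1 were below 1 FPKM in every library. Blood genes summed to 60.13 to 587.7 FPKM in oxidized and 27.54 to 596.2 FPKM in reduced libraries, with population C the highest in both groups and Ptprc at 0 in all 6 libraries. The part of cell type composition in the differences of the FGF genes was not tested.

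The 6 libraries fall into 2 groups and share the populations. Over them 6522 genes whose mean reached 5 FPKM were considered, without predicted, clone-type and mitochondrial symbols. The 10 genes and the genes of the 5 lists were left out of the ranking, so none of them could appear. The genes whose log2(FPKM + 1) followed a member most closely were listed as a description. For Fgf8 these were Hspbap1 (Pearson r = 0.997), the mitotic kinase gene Aurka (0.995) and Tcea3 (0.994). Aurka was at 78.41, 75.45 and 68.13 FPKM in the oxidized libraries, against 113.0, 104.0 and 91.22 FPKM in the reduced libraries, the same order of libraries within each group as Fgf8. For Fgf4 they were the RNA polymerase III subunit gene Polr3g (r = 0.993), Sbno1 (0.992) and the nucleolar helicase gene Ddx21 (0.992). For Fgf15 they were Ankle2 (r = 0.9995), Cox18 (0.988) and the catenin gene Ctnna1 (0.984), and for Fgf17 Slc39a4 (0.992), Klf11 (0.991) and Ramp3 (0.987). For Spry4 they were Acp6 (r = 0.999), Ubald1 (0.988) and the Polycomb gene Cbx7 (0.971), and for Dusp6 the TGF-beta mediator gene Smad4 (0.994), Zfp553 (0.990) and Atp5g2 (0.985). These are the highest of many values over few libraries, and no p is given for them.

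Among the 10 genes themselves, also as a description over the same 6 libraries, Fgf8 and Fgf4 had r = 0.807, and Fgf17 and Fgf4 had r = 0.873. Fgf15 had r = 0.053 with Fgf4 and -0.373 with Fgf8. The ERK target Dusp6 had r = -0.701 with Fgf8 and 0.776 with Fgf15, whereas Spry4 had r = 0.789 with Fgf8 and -0.813 with Fgf15. Spry2 had the most negative value, r = -0.927 with Fgf15. These values carry the difference between the groups and that between oxidized C and the other oxidized libraries.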

How the data were processed

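Per the labels' protocols, embryoid bodies were dissociated, dead cells were removed with propidium iodide, and poly(A) libraries were made with a stranded kit and sequenced as paired ends. The authors deposited FPKM per gene and library, and the tools named, per the submitters' processing notes, are HISAT2, StringTie, cutadapt, FastQC and edgeR, with the mm10 build. The sources used here say nothing of strand in the counting, so antisense partners are not told apart. The authors' deposited table also holds their fold ratio, its log2, a p-value and a q-value for oxidized against reduced.

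FPKM are not counts: 35.8% to 40.8% of low values fell on whole-read steps within 2%, so reads were not recovered, and the depths given are estimates. Here limma 3.58.1 (R 4.3.3) was fitted to log2(FPKM + 1), group alone, with a mean-variance trend, over genes averaging at least 1 FPKM, two-sided, with a Benjamini-Hochberg adjusted p under 0.05 as the threshold. The scale understates the change of low genes. The procedure was tested on simulated data.

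Population letters pair the libraries by the design text. Deviations correlated at r = -0.056, 0.07 and 0.199 within letters A, B and C. Between unlike letters r ran from -0.17 to 0.132, above the values within A and B at its upper end. Alternatives were this block, a pseudocount of 0.1, no filter, a minimum mean of 5 FPKM, median-ratio and quantile scaling, no trend, each library left out, and oxidized A and B left out.

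Genes named were the 10 genes and 4 context genes. Of each list the called genes were named, or else its 3 largest differences and its most abundant gene. Added to these were the 3 genes outside the lists most like each of 6 members. The members and lists were chosen with earlier results of these data known. Positions and shared 50-base stretches come from GENCODE vM21. Some items that these rules name are not reported here.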

Additional observations from a re-analysis of the deposited data

How the results depend on the processing

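Directions of the 10 genes held under the other pseudocount and the scalings. The block, the fit without trend and the fit with no filter cannot change a difference, only its p, so they do not test direction. Fgf17 and Spry4 have no value at a mean of at least 5 FPKM. Against 97 genes called, the replicate block gave 4, no filter 1, and leaving out oxidized A and B together 4. Leaving out 1 library gave 3 to 1185, the highest without oxidized C. Of the 10 genes 0 were called, and 0 to 3 without 1 library: 3 without oxidized C. Of the pathway genes 2 were called, against 0 with the population block, 1 with a pseudocount of 0.1, 0 with no filter, 1 with quantile normalization, 0 without oxidized A and B, and 0 to 19 without 1 library. The log2 difference turned round without oxidized A and B for Spry2 (0.327), Nanog (-0.931), Fgf3 (-0.073), Fgf5 (-0.444) and Spry1 (-0.055), while Etv5 moved to -0.883. Within population C the log2 difference was 0.162 for Spry2, -0.613 for Nanog, -0.304 for Fgf3, -0.079 for Fgf5 and -0.768 for Etv5. For Spry1 it was 0.104 there, so its sign did not turn round within that population. Without 1 library the log2 difference ranged from -0.412 to 0.298 for Etv5, from -0.005 to 0.994 for Nanog and from -0.043 to 0.505 for Fgf5. Leaving out oxidized A and B leaves 1 oxidized library, assumed to vary like the reduced ones. That library, oxidized C, is then set against reduced A, B and C, so the groups are not matched by population. For the rest the cause was not tested. Of the correlations with the most alike genes, added after seeing the data, that of Atp5g2 with Dusp6 was 0.694 with median-ratio scaling. Depth limits Fgf17 most among the 10 genes, with 48 to 170 estimated fragments, and of the called pathway genes Hs3st1, with 5.9 to 61.7.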
